A study of Mus musculus with 10 samples.

Results

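Oxidative phosphorylation depends on nuclear genes for most of its protein parts, and 94 of them were followed here among the 55471 genes of the count tables. The members were the protein-coding genes whose GENCODE M21 symbols begin with Nduf, Uqcr, Cox4 to Cox8 or Atp5, together with Sdha, Sdhb, Sdhc and Sdhd. They divided into 38 genes of complex I, 8 assembly factors of complex I (Ndufaf1 to Ndufaf8), 4 genes of complex II, 8 of complex III, 18 of complex IV and 18 of complex V. The samples were primary microglia of wild-type (WT) mice, grown in DMEM with 10% FBS and antibiotics. In 5 libraries the cells had received gapmers against the long noncoding RNA 3222401L13Rik, and in 5 libraries control gapmers. Gapmers are short antisense oligonucleotides that recruit RNase H to a target RNA. Total RNA was made into stranded libraries with a low-input kit, and reads were counted per gene. The labels do not say whether replicates were separate cultures or animals, so the p-values below measure the spread between these libraries, which may be technical.

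Complex I takes electrons from NADH and complex II takes them from succinate. Both pass them through ubiquinone to complex III, and cytochrome c carries them on to complex IV, where oxygen is reduced. Complexes I, III and IV pump protons, and complex V, the ATP synthase, uses the resulting gradient to make ATP. Complex II is encoded wholly in the nucleus, whereas the other complexes combine nuclear subunits with subunits encoded by mitochondrial DNA. In microglia and other macrophages the balance between respiration and glycolysis is known to shift with activation.

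Libraries labelled knockdown held 5593627 to 6636082 counted reads and control libraries 4321316 to 5639040. The targeted RNA itself did not separate the groups. It had 29.2 ± 6.53 reads in libraries labelled knockdown and 30.8 ± 2.59 in control libraries (n = 5 each, ± SD; p = 0.659 in a two-sided exact permutation test), and its log2 fold change was -0.17 with a standard error of 0.23 (adjusted p = 0.541 in edgeR's quasi-likelihood test). Directions below are therefore those of the libraries as labelled. The groups also differed in a background measure, the read density over 1135 olfactory receptor genes, which are known as genes of olfactory sensory neurons. That density was 0.257 ± 0.0674 reads per kilobase and 1000000 counted reads in libraries labelled knockdown and 0.599 ± 0.147 in control libraries (n = 5 each, ± SD; p = 0.00794 in a two-sided exact permutation test, the smallest that 5 against 5 allows). The reads that this density predicts over a gene's exons, divided by its reads, are called its background share below. The median share was 2.19% for the tested members and 17.4% for all tested genes.

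Of the 94 members, 86 passed the filter on low counts. At an adjusted p under 0.05, 41 were called higher and 1 lower in libraries labelled knockdown, and 44 were not called. Over all 19263 tested genes, 22.9% were called higher and 31.3% lower, so the members' share of higher calls, 47.7%, was above that of the whole table and their share of lower calls below it. The members' median log2 fold change was 0.22, against -0.10 for all tested genes, and 80 of 86 members had a positive one. In 24 members all 5 libraries labelled knockdown lay above all 5 control libraries, which was so for 12.6% of all tested genes, and in none did all 5 lie below. The nearer comparison is with genes of like background share. Among the 4728 genes whose share was under 5%, 75.5% were called higher and the median log2 fold change was 0.24, while of the 64 members among them 40 were called higher with a median of 0.25. When the libraries were scaled on these 4728 genes, the members' median was 0.00, with 2 members called higher, Sdha among them, and 0 lower, where 2.18% of those genes were called higher and 1.88% lower. In median fold change the members lay close to the other genes of low background share on both scales. On the first scale a smaller part of them was called higher (40 of 64, against 75.5%). How many members were called depended on the scaling. Values on this second scale, called the low-background scale, are given beside the first for the genes that the results turn on. Within sequencing lane 7, which held 3 libraries of each group, 44 members were called higher and 1 lower with a median of 0.30. Within lane 8, which held 2 of each, 2 were called higher and 0 lower with a median of 0.21. Over the whole table, lane 8 alone gave 67 genes called higher and 153 called lower. In bulk samples, fewer cells of a type and less RNA per cell cannot be told apart.

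Microglia and macrophage markers were present. With scaling on all tested genes, 12 of 13 were called higher in libraries labelled knockdown and 1 was not called (Tmem119, a homeostatic microglia gene), where 22.9% of all tested genes were called higher. On the low-background scale 1 of the 11 measured was called higher, with a median log2 fold change of 0.03. Their summed level was 6638 to 7409 counts per 1000000 scaled reads (CPM, with TMM scaling) in libraries labelled knockdown, against 5210 to 6366 CPM in control libraries. Summed astrocyte markers were 150 to 186 CPM in libraries labelled knockdown and 157 to 175 CPM in control libraries, with 2 of 6 called higher (Gfap and Aqp4) and 2 called lower. Neuron markers summed to 19.4 to 30.1 CPM in libraries labelled knockdown and 37.1 to 57.4 CPM in control libraries, with 4 of 5 tested called lower and a median background share of 50%. Fibroblast and mural markers summed to 15.2 to 27.8 CPM in libraries labelled knockdown and 32.7 to 45.5 CPM in control libraries, with all 5 tested called lower and a median background share of 47.7%. Of 4 tested endothelial markers 3 were called lower and 1 higher (median background share 27.1%), and of 5 tested oligodendrocyte lineage markers 2 were called lower (45.3%). Of 3 tested border macrophage and monocyte markers 2 were called lower and Mrc1 higher (52.6%). Of all tested genes 31.3% were called lower, and the control libraries had the higher background density. No list had a marker at 0 in every library, and the part of these differences in the members' values was not tested.

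**Figure D1:**
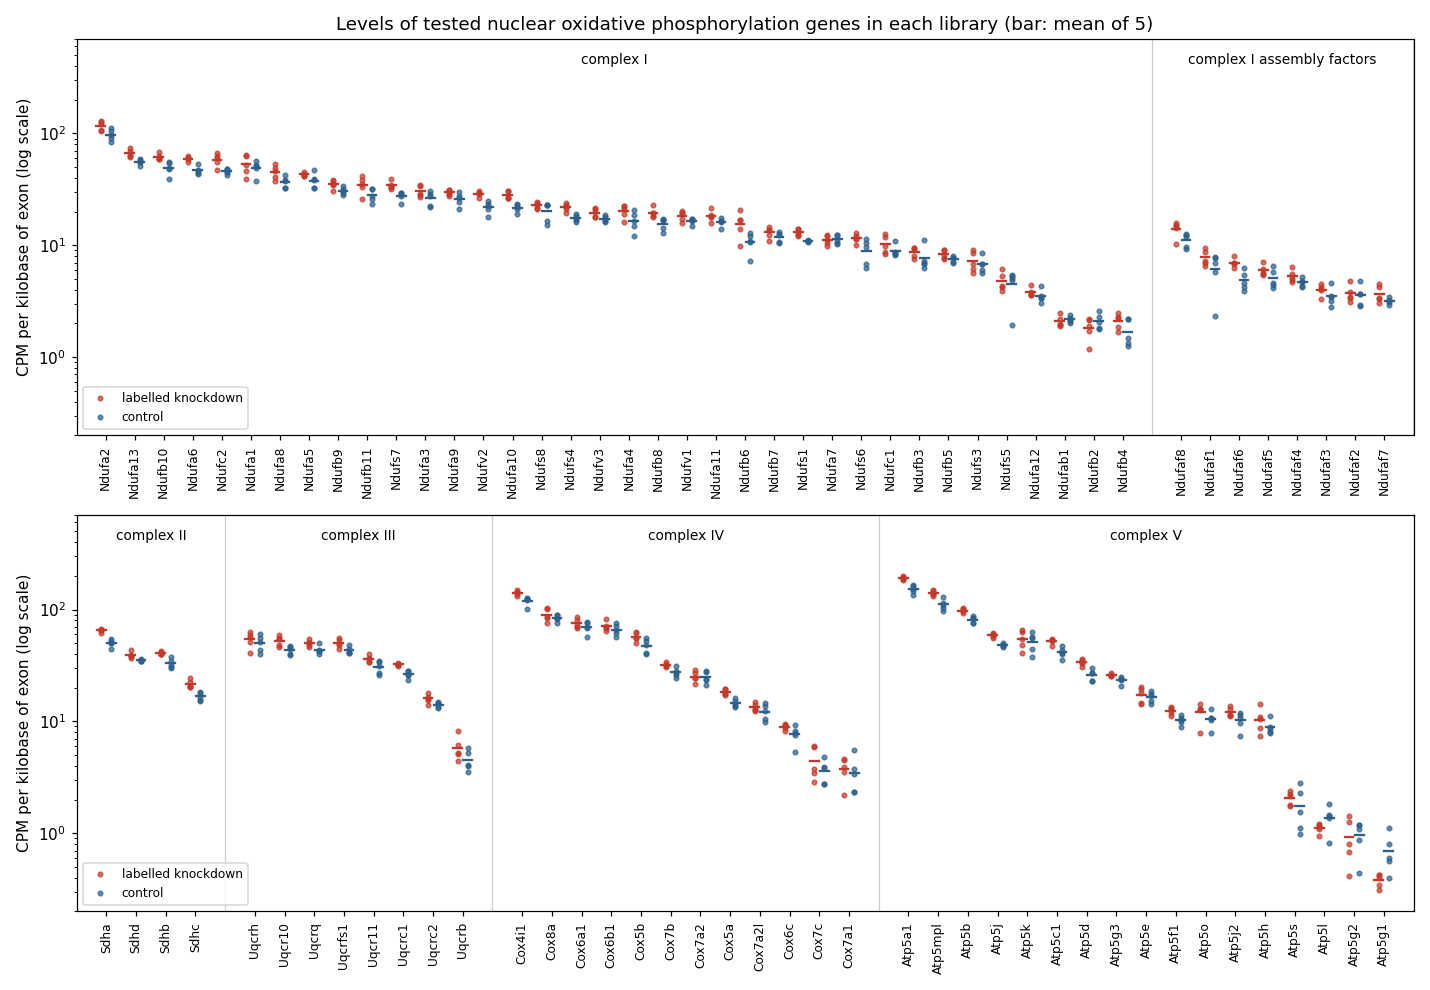
Levels of tested members in each library, in CPM per kilobase of exon on a log axis, grouped by complex and ordered by mean; red points are libraries labelled knockdown, blue points control libraries, and bars the means of 5. Atp5a1 stood highest with a mean over all libraries of 171 CPM per kilobase, Atp5g1 lowest with 0.537, and in most members the red and blue points lay close together or overlapped.

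The summed level of all members was 5137 ± 218 CPM in libraries labelled knockdown and 4265 ± 277 CPM in control libraries (SD, n = 5 each), a ratio of 1.20. The range was 4817 to 5365 CPM in libraries labelled knockdown and 3865 to 4526 CPM in control libraries, with no overlap. These sums use the scaling on all tested genes, with which all genes under a 5% background share had a median log2 fold change of 0.24. As a plain percentage of all counted reads, the members took 0.473% ± 0.0066 in libraries labelled knockdown and 0.447% ± 0.0129 in control libraries (SD, n = 5 each). The ratio of summed CPM was 1.20 in complex I, 1.18 in its assembly factors, 1.27 in complex II, 1.17 in complex III, 1.14 in complex IV and 1.22 in complex V.  Per kilobase of exon, Atp5a1 (171 CPM per kilobase), Cox4i1 (131), Atp5mpl (126), Ndufa2 (107), Atp5b (89.4), Cox8a (87.0) and Cox6a1 (72.6) had the highest mean levels over the 10 libraries, while the median tested member had 18.8.

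The promoters of the members were a feature that the choice by symbol did not use. The factors NRF1, GABPA (an ETS protein) and YY1 are known to act at promoters of respiratory genes. RefSeq windows of GRCm38.p6, from 250 bases before to 50 after a transcript start, were matched for 70 of the 94 members and searched on both strands. The NRF1 motif CGCANGCG was found in 25 of them (35.7%), against 12.8% of 14806 promoters of the same length, and its stricter form GCGCATGCG in 10 (14.3%), against 2.77%. The ETS motif CCGGAAG stood in 17 (24.3%), against 13.3% of all promoters. The YY1 motif AAGATGG stood in 9 (12.9%), against 6.63%, and AAGATGGCG in 6 (8.57%), against 2.27%. At least 1 of the 3 shorter motifs was present in 43 of 70 member promoters (61.4%), against 28.4% of all. By complex, the NRF1 motif stood in 9 of 31 windows of complex I, 2 of 3 of complex II, 3 of 5 of complex III, 1 of 13 of complex IV and 7 of 11 of complex V. The NRF1 motif was in 9 of 27 members called higher and in 16 of 39 not called, and the ETS motif in 3 of 27 called higher and in 14 of 39 not called. The YY1 motif was in 4 of 27 called higher and in 5 of 39 not called. The median log2 fold change was 0.21 in tested members with the NRF1 motif and 0.21 in those without it, 0.13 with the ETS motif and 0.22 without it, and 0.31 with the YY1 motif and 0.19 without it, all given with no test. The 4 windows below are examples that hold matches, with capitals marking motif letters on either strand. Windows of Atp5b and Cox5a, also called higher, held none of the 3 motifs and are not shown. Sdha and Uqcrc1, called higher in complexes II and III, hold 3 and 2 NRF1 matches. Cox8a, a high member that was not called, holds 2 ETS matches, and Ndufs7, a catalytic subunit of complex I, holds 1 YY1 match that runs on into the longer form.
Sdha, chr13:74350191-74350490, minus strand: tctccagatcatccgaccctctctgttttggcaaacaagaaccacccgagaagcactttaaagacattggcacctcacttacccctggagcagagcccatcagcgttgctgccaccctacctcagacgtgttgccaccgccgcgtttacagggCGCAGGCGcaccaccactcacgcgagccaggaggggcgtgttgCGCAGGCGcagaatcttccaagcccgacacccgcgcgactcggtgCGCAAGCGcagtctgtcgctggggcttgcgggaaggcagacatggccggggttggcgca
Uqcrc1, chr9:108936398-108936697, plus strand: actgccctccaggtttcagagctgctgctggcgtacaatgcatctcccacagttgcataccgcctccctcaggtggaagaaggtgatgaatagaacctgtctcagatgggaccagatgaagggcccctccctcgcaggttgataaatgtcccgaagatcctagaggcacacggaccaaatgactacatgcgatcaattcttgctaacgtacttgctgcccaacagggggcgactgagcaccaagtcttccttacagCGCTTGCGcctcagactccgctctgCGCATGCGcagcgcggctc
Cox8a, chr19:7217567-7217866, minus strand: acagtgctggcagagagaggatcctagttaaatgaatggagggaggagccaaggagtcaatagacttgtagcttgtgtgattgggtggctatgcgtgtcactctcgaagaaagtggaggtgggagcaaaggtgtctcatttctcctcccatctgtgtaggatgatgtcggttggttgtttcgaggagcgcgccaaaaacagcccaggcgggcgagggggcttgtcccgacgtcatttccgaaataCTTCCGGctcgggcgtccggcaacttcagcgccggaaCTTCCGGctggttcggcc
Ndufs7, chr10:80249199-80249498, plus strand: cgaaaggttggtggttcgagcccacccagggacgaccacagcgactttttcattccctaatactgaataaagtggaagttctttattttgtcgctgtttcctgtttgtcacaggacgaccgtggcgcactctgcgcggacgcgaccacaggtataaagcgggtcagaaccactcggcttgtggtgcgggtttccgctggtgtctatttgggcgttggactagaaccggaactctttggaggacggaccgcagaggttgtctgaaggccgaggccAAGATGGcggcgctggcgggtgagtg

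In complex I, 18 of 37 tested members were called higher and 0 lower, with a median log2 fold change of 0.21, or 0.03 over the 29 on the low-background scale. All 18 were among those 29, and 75.5% of all genes under a 5% background share were called higher. Of its catalytic core subunits, which carry the flavin and the iron-sulfur clusters or bind the quinone, some were called higher and others were not called. Differences between these subunits were not tested. Ndufv2, part of the NADH-oxidising arm, had 62.1 ± 2.99 CPM in libraries labelled knockdown and 47.1 ± 5.54 CPM in control libraries (SD, n = 5 each; log2 fold change 0.39, adjusted p = 2.7e-05, edgeR quasi-likelihood test with Benjamini-Hochberg adjustment). Ndufs1, the largest subunit of the complex, had 106 ± 7.44 CPM in libraries labelled knockdown and 88.7 ± 1.5 CPM in control libraries (log2 fold change 0.26, adjusted p = 0.000671, edgeR). Ndufs7, which carries the last iron-sulfur cluster before the quinone, had a log2 fold change of 0.31 (adjusted p = 0.000507, edgeR). Ndufv1, which binds NADH, Ndufs8 and Ndufs3 were not called, with log2 fold changes of 0.16, 0.17 and 0.09. Scaled on low-background genes, Ndufv2 was at 0.15, Ndufs7 at 0.07, Ndufs1 at 0.01, Ndufs8 at -0.08 and Ndufv1 at -0.09, none of them called. Single libraries bore on some of these calls. Ndufv1 was called without knockdown replicate 4 (0.23), without knockdown replicate 5 (0.21) or without control replicate 5 (0.20), and Ndufs8 was called without control replicate 5 (0.24).

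Among the accessory subunits, which surround the core, the largest log2 fold change was that of Ndufb6, at 0.53 with a standard error of 0.19 (adjusted p = 0.0142, edgeR). Ndufb6 had 9.26, 11.0, 13.5, 6.55 and 11.1 CPM in libraries labelled knockdown, against 7.10, 4.78, 7.18, 8.48 and 8.04 CPM in control libraries. The groups overlapped, and without knockdown replicate 3 the value was 0.43 and no longer called. Ndufb6 was at 0.28 on the low-background scale and at 0.12 in lane 8 alone, and was called in neither. Ndufa2, the most abundant complex I member per kilobase, had 67.2 ± 6.64 CPM in libraries labelled knockdown and 55.6 ± 6.08 CPM in control libraries (SD, n = 5 each; log2 fold change 0.27, adjusted p = 0.00189, edgeR), and 0.03 on the low-background scale. Ndufa13, also known as Grim19, had 83.1 ± 6.8 CPM in libraries labelled knockdown and 69.6 ± 3.5 CPM in control libraries (log2 fold change 0.26, adjusted p = 0.00128, edgeR), and 0.01 on the low-background scale. Exons of Ndufb6, Ndufa2 and Ndufa13 overlap genes on the other strand, as those of 29 members in all do, and the strand setting of the counting is not known from the sources used here. Ndufa4 carries a complex I symbol but is now regarded as a subunit of complex IV. It had 27.9 ± 3.64 CPM in libraries labelled knockdown and 22.9 ± 4.63 CPM in control libraries (log2 fold change 0.29, adjusted p = 0.0195, edgeR), and was not called without control replicate 4 (0.21) or on the low-background scale (0.05).

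The assembly factors of complex I, which help to build it but are not in the finished complex, had low levels of 3.43 to 12.6 CPM per kilobase. Of 8, 1 was called higher (12.5%, against 22.9% of all tested genes) and 0 lower, with a median log2 fold change of 0.22. Ndufaf6 had 7.75, 9.99, 8.61, 8.32 and 8.52 CPM in libraries labelled knockdown, against 5.28, 4.78, 5.70, 6.64 and 7.68 CPM in control libraries. The groups did not overlap, and the log2 fold change was 0.52 with a standard error of 0.20 (adjusted p = 0.0222, edgeR). Ndufaf1 and Ndufaf8, the other 2 most abundant factors, had 0.34 and 0.32 and were not called. Ndufaf8, the only factor measured on the low-background scale, was at 0.08 there and not called. With scaling on all tested genes it was called without knockdown replicate 4 (0.44) or without control replicate 5 (0.39).

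Complex II had the highest median log2 fold change, 0.34, and 3 of its 4 members were called higher. All 4 had a background share under 5%, and 75.5% of all genes under that share were called higher. Sdha (ENSMUSG00000021577, chr13:74322254-74350280 on the minus strand of GRCm38) is the flavoprotein that oxidises succinate. It had 272, 273, 276, 253 and 273 CPM in libraries labelled knockdown, against 217, 183, 205, 206 and 224 CPM in control libraries. The mean was 269 ± 9.25 CPM in libraries labelled knockdown and 207 ± 15.5 CPM in control libraries (SD, n = 5 each), and the log2 fold change was 0.38 with a standard error of 0.06 (adjusted p = 1.33e-06, edgeR). On the low-background scale Sdha kept a log2 fold change of 0.13 (adjusted p = 0.0176, edgeR), and with the predicted background subtracted it had 0.11 and was not called. Sdhb, the iron-sulfur subunit, had 91.5 ± 2.77 CPM in libraries labelled knockdown and 73.8 ± 7.17 CPM in control libraries (SD, n = 5 each; log2 fold change 0.31, adjusted p = 0.000123, edgeR). Sdhc, a membrane anchor, had 70.1 ± 5.75 CPM in libraries labelled knockdown and 54.3 ± 4.37 CPM in control libraries (log2 fold change 0.37, adjusted p = 3.82e-05, edgeR).

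The fourth member, the membrane anchor Sdhd, had 47.3, 45.3, 47.1, 48.1 and 54.0 CPM in libraries labelled knockdown, against 43.0, 42.4, 42.7, 43.9 and 44.3 CPM in control libraries. These groups also did not overlap, so that in all 4 genes of complex II every library labelled knockdown lay above every control library. With the same scaling this was so for 12.6% of all tested genes. Genes under a 5% background share, as these 4 are, had a median log2 fold change of 0.24 with that scaling. How many of those genes lay apart in this way was not counted. The log2 fold change of Sdhd was 0.16 (adjusted p = 0.0655, edgeR), and it was called without knockdown replicate 1 (0.19), without knockdown replicate 2 (0.21) or without control replicate 5 (0.20). With low-background scaling, Sdhb was at 0.07, Sdhc at 0.12 and Sdhd at -0.08, none called, and the complex had a median of 0.09.

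**Figure D2:**
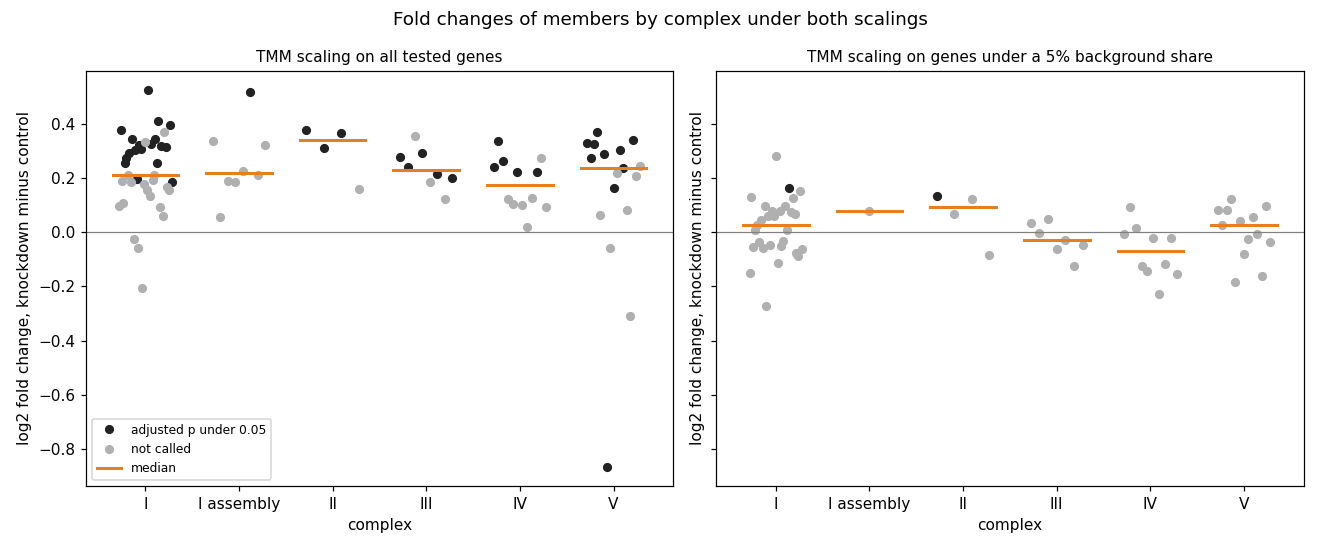
Log2 fold changes of single members, libraries labelled knockdown minus control, by complex; black points had an adjusted p under 0.05 in edgeR's quasi-likelihood test, grey points did not, and orange bars are medians. With scaling on all tested genes (left) the medians lay between 0.17 and 0.34, and with scaling on genes under a 5% background share (right, 64 members) between -0.07 and 0.09.

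In complex III, 5 of 8 members were called higher and 0 lower, with a median log2 fold change of 0.23 that turned to -0.03 over 7 members on the low-background scale. All 5 were among those 7, and 75.5% of all genes under a 5% background share were called higher. Uqcrc1 (ENSMUSG00000025651, chr9:108936633-108949623 on the plus strand) is a core protein of the complex. It had 133, 129, 132, 136 and 136 CPM in libraries labelled knockdown, against 116, 108, 118, 96.8 and 107 CPM in control libraries. The groups did not overlap, with a mean of 133 ± 2.89 CPM in libraries labelled knockdown and 109 ± 8.32 CPM in control libraries (SD, n = 5 each). Its log2 fold change was 0.29 (adjusted p = 0.000106, edgeR). The other members called higher included Uqcr10 at 0.28, Uqcrq at 0.20 and Uqcr11 at 0.24, all small subunits. Scaled on low-background genes, Uqcrc1 was at 0.05, Uqcr10 at 0.03, Uqcrq at -0.05 and Uqcr11 at 0.00, none called. Uqcr11 stood at the threshold (adjusted p = 0.0467, edgeR) and was not called without knockdown replicate 2 (0.23) or 4 (0.25), or without control replicate 1 (0.20), 2 (0.21) or 4 (0.25). Uqcrh, the hinge protein that contacts cytochrome c1 and the most abundant member of the complex per kilobase, had 67.1 ± 11.1 CPM in libraries labelled knockdown and 61.7 ± 10.6 CPM in control libraries (log2 fold change 0.12), and was not called. It was called without knockdown replicate 4 (0.23), in lane 7 alone (0.24) and with no low-count filter (0.25).

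In complex IV, 5 of 12 tested members were called higher and 0 lower. Its median log2 fold change, 0.17, turned to -0.07 on the low-background scale, over 10 members. The 5 called members were all among those 10, and 75.5% of all genes under a 5% background share were called higher. Cox4i1 (ENSMUSG00000031818, chr8:120668222-120674207 on the plus strand) is a subunit known as a site of regulation by ATP. It had 214, 222, 223, 204 and 233 CPM in libraries labelled knockdown, against 191, 155, 198, 193 and 190 CPM in control libraries. The groups did not overlap, with a mean of 219 ± 10.9 CPM in libraries labelled knockdown and 185 ± 17.2 CPM in control libraries (SD, n = 5 each). The log2 fold change was 0.24 (adjusted p = 0.000892, edgeR), but -0.01 on the low-background scale. Cox5a had a log2 fold change of 0.34 (adjusted p = 0.000848, edgeR) and 0.09 on the low-background scale. Cox5b had 0.26 and 0.02, and Cox7b 0.22 and -0.02, the first value of each called and the second not. Without control replicate 2, Cox7b had 0.20 and was not called.

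Several small subunits of complex IV were not called. Cox8a, one of its most abundant members, had 52.2, 53.2, 63.8, 46.7 and 62.2 CPM in libraries labelled knockdown, against 55.7, 47.2, 51.9, 51.1 and 54.8 CPM in control libraries, with a log2 fold change of 0.09. Cox7a2 had 20.2, 27.4, 23.0, 22.8 and 25.4 CPM in libraries labelled knockdown, against 22.6, 19.9, 26.1, 21.9 and 26.6 CPM in control libraries, with a log2 fold change of 0.02. In both genes the groups overlapped. Cox6a1 and Cox6b1 had log2 fold changes of 0.12 and 0.10. Scaled on low-background genes, Cox8a was at -0.15, Cox7a2 at -0.23, Cox6a1 at -0.12 and Cox6b1 at -0.14, again not called.

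The composition of the respiratory genes can be read without any scaling between libraries, as each complex's percentage of the members' summed level per kilobase. Complex IV took 19.3% ± 0.294 in libraries labelled knockdown and 20.5% ± 0.262 in control libraries (SD, n = 5 each). The range was 19.1% to 19.8% in libraries labelled knockdown and 20.3% to 20.9% in control libraries, with no overlap, and the difference was -1.26 percentage points. This measure was chosen after the values were seen and is given with no test. The difference was -1.36 points within lane 7 and -1.12 within lane 8, -1.32 with Cox4i1 left out and -1.24 with Ndufa4 counted in complex IV. With each gene's principal transcript in place of all its exons it was -0.82 and the groups overlapped. The other complexes overlapped between groups. Complex I took 37.2% ± 0.56 in libraries labelled knockdown and 36.6% ± 0.212 in control libraries, and complex V took 25.4% ± 0.511 in libraries labelled knockdown and 24.8% ± 0.384 in control libraries (SD, n = 5 each). Complex III took 10.5% ± 0.142 in libraries labelled knockdown and 10.7% ± 0.366 in control libraries, and complex II took 5.88% ± 0.201 in libraries labelled knockdown and 5.64% ± 0.235 in control libraries.

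**Figure D3:**
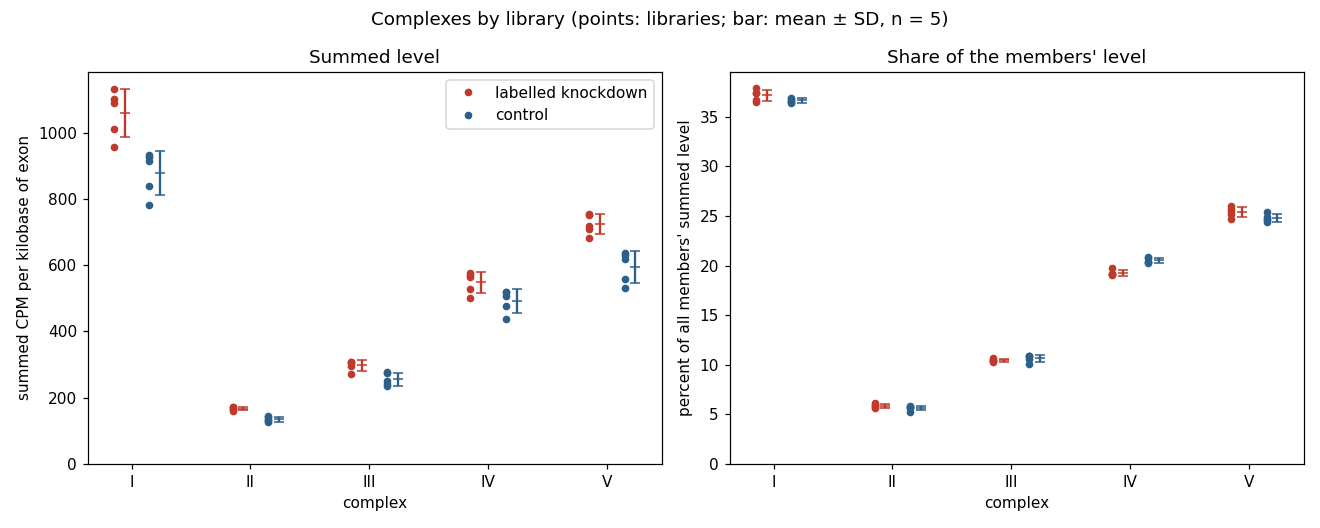
Summed level of each complex in CPM per kilobase of exon (left) and its percentage of the members' summed level (right), with 1 point per library, red for libraries labelled knockdown and blue for control libraries, and mean ± SD (n = 5) beside the points. Complex IV is the complex whose percentage does not overlap between groups, at 19.1% to 19.8% in libraries labelled knockdown and 20.3% to 20.9% in control libraries.

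Complex V had 9 of 17 tested members called higher and 1 lower, with a median log2 fold change of 0.24, or 0.03 over 13 members on the low-background scale. All 9 were among those 13, and 75.5% of all genes under a 5% background share were called higher. Atp5a1, the alpha subunit of the catalytic head, had the most reads of any member. It had 583, 609, 619, 578 and 602 CPM in libraries labelled knockdown, against 504, 423, 478, 458 and 518 CPM in control libraries. The groups did not overlap, with a mean of 598 ± 17.3 CPM in libraries labelled knockdown and 476 ± 37.5 CPM in control libraries (SD, n = 5 each). The log2 fold change was 0.33 with a standard error of 0.06 (adjusted p = 9.37e-06, edgeR). On the low-background scale it was at 0.08 (adjusted p = 0.0915, edgeR). Atp5b, the catalytic beta subunit, had 414 ± 16.4 CPM in libraries labelled knockdown and 343 ± 22.2 CPM in control libraries (SD, n = 5 each; log2 fold change 0.27, adjusted p = 0.000113, edgeR). Atp5d, the delta subunit of the central stalk, had 64.9 ± 4.27 CPM in libraries labelled knockdown and 50.2 ± 5.78 CPM in control libraries (log2 fold change 0.37, adjusted p = 5.86e-05, edgeR). Atp5mpl, a small membrane protein that copurifies with the enzyme, had 168, 177, 168, 180 and 162 CPM in libraries labelled knockdown, against 158, 117, 134, 126 and 140 CPM in control libraries (log2 fold change 0.34, adjusted p = 1.93e-05, edgeR). On the low-background scale Atp5d was at 0.12, Atp5mpl at 0.10 and Atp5b at 0.03, none called.

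The member called lower, Atp5g1 (ENSMUSG00000006057, chr11:96068852-96075670 on the minus strand), is 1 of 3 genes for the c subunit of the membrane ring. It had 2.08, 2.07, 1.52, 1.95 and 1.70 CPM in libraries labelled knockdown, against 5.46, 3.95, 2.76, 2.95 and 1.96 CPM in control libraries. The groups overlapped at control replicate 5, and the log2 fold change was -0.87 with a standard error of 0.33 (adjusted p = 0.0207, edgeR). Atp5g1 was counted at 9 to 12 reads in libraries labelled knockdown and 11 to 30 in control libraries, and its background share was 78%. Without control replicate 1 the log2 fold change was -0.62 and no longer called. Its paralog Atp5g2 had 1.54 ± 0.703 CPM in libraries labelled knockdown and 1.60 ± 0.53 CPM in control libraries, with a background share of 44.0%. Nearly all counted c subunit reads were on Atp5g3, named after its values were seen, with 57.0 ± 1.48 CPM in libraries labelled knockdown and 50.9 ± 3.52 CPM in control libraries (SD, n = 5 each). Most of the Atp5g2 transcript's sequence also occurs in transcripts of genes elsewhere, as given below. Reads that match a copy can be lost in counting, so the level of Atp5g2 is uncertain. In all, 13 members had a background share over 20%. Of these, Ndufb2, Ndufb4, Atp5l, Atp5s and Atp5g2 were tested and not called, with log2 fold changes of -0.21, 0.33, -0.31, 0.24 and -0.06.

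The 8 members that were not tested were Ndufa4l2, Cox4i2, Cox6a2, Cox6b2, Cox7b2, Cox8b, Cox8c and a second Ensembl entry for Atp5o, which had 0 reads in every library. Most of these are isoforms known from muscle, lung or testis or, for Ndufa4l2, from hypoxic cells. Cox4i2, the isoform known from lung, was counted at 4, 10, 11, 2 and 8 reads in libraries labelled knockdown, against 14, 15, 13, 9 and 12 reads in control libraries. Its paralog Cox4i1 averaged 131 CPM per kilobase over all libraries, against 2.27 for Cox4i2. The muscle isoforms Cox6a2 and Cox8b and the testis isoforms Cox6b2, Cox7b2 and Cox8c stood at 0.802 to 1.76 CPM per kilobase. Cox7a1, the muscle counterpart of Cox7a2, passed the filter with 6 to 16 reads a library and had 2.00 ± 0.522 CPM in libraries labelled knockdown and 1.86 ± 0.701 CPM in control libraries (SD, n = 5 each), with a log2 fold change of 0.10 that was not called. Of the 7 ubiquitous counterparts of such isoforms, Cox4i1, Cox7b and Ndufa4 were called higher and 4 were not called, with a median log2 fold change of 0.12. Over all tested genes 22.9% were called higher. On the low-background scale all 7 counterparts were measured and none was called, with a median of -0.12.

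The levels were also set beside copies of these genes elsewhere in the genome. Processed pseudogenes are common for respiratory genes, and reads that match a copy can be lost or split in counting. In 11 tested members at least 20% of the 50-base stretches of the principal transcript also occurred in transcripts of genes elsewhere in GENCODE M21. They were Atp5g2 (87.4%), Atp5l (68.5%), Cox7c (53.0%), Atp5h (47.9%), Uqcrb (43.2%), Ndufb4 (37.0%), Ndufs3 (35.8%), Ndufs5 (31.1%), Ndufa12 (26.2%), Cox5b (25.9%) and Atp5f1 (23.2%). Their median level was 8.48 CPM per kilobase of principal transcript, against 47.1 for 66 other subunit genes, with the restricted isoforms left out of both. Of these 11, 2 were called higher, against 38 of the 66 and 22.9% of all tested genes. The 11 also had a median background share of 8.82%, against 1.43% for the 66, and their levels are uncertain. The part of the copies in these levels was not tested.

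**Figure D4:**
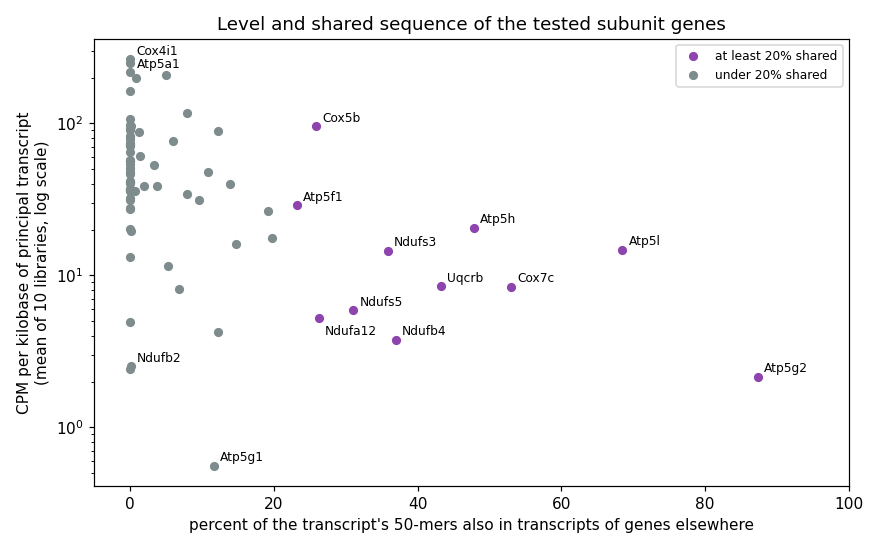
Mean level of the tested subunit members over 10 libraries, in CPM per kilobase of principal transcript on a log axis, against the percentage of the transcript's 50-base stretches that also occur in transcripts of genes elsewhere; purple points are the 11 members at 20% or more. Apart from Cox5b, the purple points lie below 30 CPM per kilobase, and Atp5g2 lies at 87.4% and 2.15 CPM per kilobase.

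Members with long transcripts had larger fold changes than those with short ones. This split was chosen after the values were seen and is a description. Among the 64 members under a 5% background share, 13 of 15 with a principal transcript of at least 1500 bases were called higher with a median log2 fold change of 0.29, against 13 of 19 with 800 to 1500 bases (median 0.24) and 14 of 30 under 800 bases (median 0.22). The members' shares called higher were thus 86.7%, 68.4% and 46.7%, close to the 82.4%, 66.5% and 47.8% of all genes under a 5% background share in the same length classes. On the low-background scale the medians were 0.05, -0.01 and -0.02 in that order. Spearman's rho of fold change with length was 0.354 over these 64 genes, which share all libraries, and 0.338 within lane 7 and 0.285 within lane 8. Over 4455 genes of the same background share rho was -0.015. Longer members also had higher counts, with a median control level of 72.1 CPM in the longest class and 31.1 CPM in the shortest, and rho of fold change with control CPM was 0.277. The part of counts and length in the calls was not tested. The long class held Sdha, Sdhc, Ndufs1, Ndufv2, Atp5a1 and Atp5b, and the short class Cox8a, Cox7a2, Cox6a1 and Uqcrh.

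**Figure D5:**
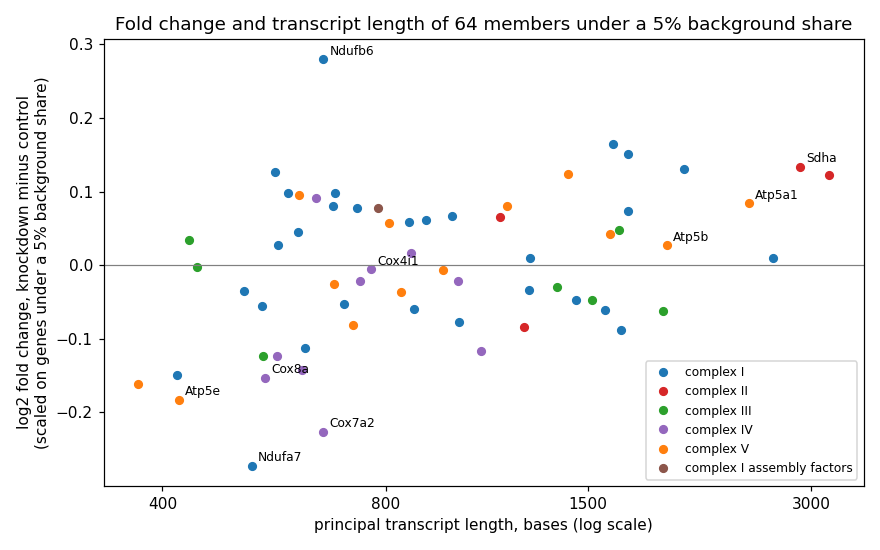
Log2 fold change on the low-background scale, libraries labelled knockdown minus control, against principal transcript length in bases on a log axis, with 1 point for each of 64 members coloured by complex. The members of 1500 bases or more had a median of 0.05 and those under 800 bases a median of -0.02, and Cox8a and Cox7a2 lie at -0.15 and -0.23.

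Partner genes of the pathway were followed by lists. Of the 13 subunits encoded by mitochondrial DNA, 7 had reads and all 7 were called higher, with a median log2 fold change of 0.28, or 0.03 on the low-background scale. All 7 had a background share under 5%, and 75.5% of all genes under that share were called higher. The other 6 subunits, mt-Nd3, mt-Nd4l, mt-Co2, mt-Co3, mt-Atp6 and mt-Atp8, were at 0 in all 10 libraries. These counts cannot tell missing RNA from reads lost in mapping or counting, so the 0 values are not read as a lack of expression. mt-Co1, the catalytic subunit of complex IV, had 1687 ± 74.4 CPM in libraries labelled knockdown and 1333 ± 86 CPM in control libraries (SD, n = 5 each; log2 fold change 0.34, adjusted p = 5.76e-06, edgeR), and 0.09 on the low-background scale (adjusted p = 0.0262, edgeR). On that scale the nuclear subunits of its complex had a median of -0.07. mt-Nd4 and mt-Nd1, membrane subunits of complex I, had log2 fold changes of 0.30 and 0.28, and 0.06 and 0.04 on the low-background scale, the second pair not called.

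Of 10 other nuclear proteins of the chain, 6 were called higher and 0 lower, with a median log2 fold change of 0.20, or 0.01 over the 4 measured on the low-background scale. Over all tested genes 22.9% were called higher and 31.3% lower. Atpif1, the inhibitor of ATP synthase hydrolysis, had 449 ± 19.6 CPM in libraries labelled knockdown and 349 ± 23.6 CPM in control libraries (SD, n = 5 each; log2 fold change 0.36, adjusted p = 1.95e-06, edgeR), and 0.12 on the low-background scale (adjusted p = 0.0281, edgeR). Sqor, which feeds electrons from sulfide into ubiquinone, and Etfa, part of the electron transfer flavoprotein, had 0.28 and 0.24, and 0.03 and -0.01 on the low-background scale, the second pair not called. Among 41 tested assembly factors outside the members, 8 were called higher and 1 lower, with a median of 0.15. Their share of higher calls was not above the 22.9% of all tested genes. Uqcc2, needed to build complex III, had 0.42 (adjusted p = 0.00106, edgeR), Coa5 and Pet100, needed for complex IV, had 0.25 and 0.27, and Lyrm7, a complex III factor with a background share of 80.2%, had -0.78 (adjusted p = 0.0381, edgeR). On the low-background scale none of this list was called.

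Among 13 regulators of respiratory genes, 4 were called higher and 1 lower, where 22.9% of all tested genes were called higher and 31.3% lower. The regulators' median log2 fold change was 0.12, and none was called on the low-background scale, where 3 were measured. Gabpa, the ETS factor named above, had 85.4 ± 5.42 CPM in libraries labelled knockdown and 68.6 ± 5.26 CPM in control libraries (SD, n = 5 each; log2 fold change 0.31, adjusted p = 0.000127, edgeR). Yy1 had 125 ± 5.42 CPM in libraries labelled knockdown and 104 ± 8.26 CPM in control libraries (log2 fold change 0.26, adjusted p = 0.00051, edgeR). Gabpa exons overlap those of the member Atp5j on the other strand. Gabpb2 had a log2 fold change of 0.18. Ppargc1a, the coactivator PGC-1alpha, had 3.21 ± 0.53 CPM in libraries labelled knockdown and 5.25 ± 1.11 CPM in control libraries (SD, n = 5 each; log2 fold change -0.71, adjusted p = 0.0184, edgeR), with a background share of 65.3%.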

How the data were processed

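RNA was sequenced from 10 libraries of primary mouse microglia, 5 labelled knockdown and 5 control. The authors deposited 1 table of raw read counts per exon-containing gene and library, and per the submitters' processing notes the build was GRCm38 (mm10). The sources used here do not give the aligner, the counter or its strand setting. Of 55563 entries, 92 spike-in controls were left out of library sizes and tests (together at most 2 reads in any library). By Ensembl ID, 55230 of 55471 genes matched GENCODE M21.

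Counts were tested with edgeR 4.0.16 in R 4.3.3 (filterByExpr by group, TMM, robust quasi-likelihood fit on group alone). P-values were adjusted by Benjamini-Hochberg over all 19263 tested genes, with a threshold of 0.05. CPM values were scaled by TMM. Levels per kilobase used the union of a gene's exons unless stated. A background density was taken from 1135 olfactory receptor genes, and a second fit took its TMM factors from the 4728 genes under a 5% background share. Libraries held 4321316 to 6636082 reads, so low members rest on few reads (Atp5g1 on 9 to 30 a library) and have wide standard errors.

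The members and all lists were chosen with earlier results of these data known. The genes named are, in each complex, the 3 with the highest level per kilobase and the 3 with the largest called rise or fall, the isoform pairs, the catalytic core of complex I, all with a background share over 20%, and from each other list up to 3 called genes a direction. Genes outside this rule are named as chosen after their values were seen or as examples of a count. Alternatives used DESeq2 1.42.0, limma 3.58.1, other scalings, filters, lanes, thinning, a density covariate and the leaving out of each library. Replicate counts differed beyond sampling noise in every pair within a group (chi-square per degree of freedom 1.76 to 4.48), so no library was taken for a repeat. The fit was tested on simulated counts. A result for 1 member is not reported here.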

Additional observations from a re-analysis of the deposited data

Results flagged for a closer look

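The level of each named member and the sum of each complex were screened in both groups for a library that lies far from the other 4, by Dixon's criterion at 95%. Of 114 groups of 5 libraries screened, 5 were marked, and chance marks about 1 in 20. In knockdown replicate 4, Sdha, the succinate-oxidising subunit of complex II, was at 253 CPM, where the other 4 libraries labelled knockdown had 272 to 276 CPM. Ndufaf8, a complex I assembly factor, was at 8.49 CPM in the same library, against 11.9 to 13.2 CPM in the other 4. The summed level of the complex I assembly factors was 100.3 CPM in knockdown replicate 2, against 92.2 to 94.0 CPM in the others. Cox4i1 was at 155 CPM in control replicate 2, where the other 4 control libraries had 190 to 198 CPM. Control replicate 2 had the fewest reads, the highest background density and the lowest summed member level of the 10 libraries. Cox8c, the testis isoform, was at 2.49 CPM in the same library, which was 12 reads, against 0.368 to 0.546 CPM in the other control libraries.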

How the results depend on the processing

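Against 41 members called higher and 1 lower, with a median log2 fold change of 0.22, DESeq2 gave 49 higher and limma-voom 38. Upper-quartile scaling gave 20 higher with a median of 0.077, and library totals 10 higher and 3 lower with a median of 0.018, -0.029 in complex IV and -0.0061 for Uqcrq. The median of all tested genes moved with these scalings, and the calls depend on that choice. Without the low-count filter 0 were called lower and the median was 0.35, and with a filter of 5 CPM in 5 libraries 22 were higher and 0 lower with a median of 0.10. This stricter filter left 2057 genes called higher and 2239 lower in all. Thinned counts and an adjusted p under 0.01 each gave 0 lower. Lane 8 alone gave 2 members higher and 0 lower, with 67 higher and 153 lower over all genes. Scaling on genes under a 5% background share gave 2 higher and 0 lower with a median of 0.0033. It called 103 genes higher and 89 lower over all 4728. Its values were -0.030 for complex III, -0.070 for complex IV, -0.0058 for Cox4i1, -0.022 for Cox7b, -0.0030 for Uqcr11 and -0.047 for Uqcrq. With background subtracted as well, 0 were called higher and 0 lower with a median of 0.00052. That fit called 34 genes higher and 48 lower in all. The values were then -0.049 for complex III, -0.073 for complex IV, -0.032 for Cox4i1, -0.0023 for Cox5b, -0.035 for Cox7b, -0.014 for Ndufa13, -0.016 for Uqcr11 and -0.067 for Uqcrq. With background density as a covariate, a measure whose groups do not overlap, 0 were called higher with a median of -0.040. The values were -0.085 for complex I, -0.0091 for complex III, -0.064 for complex IV, -0.011 for complex V, -0.015 for Cox4i1, -0.21 for Cox5b, -0.22 for Ndufa2, -0.064 for Ndufa4, -0.46 for Ndufb6 and -0.59 for Uqcrh. The cause of these turns was not tested. Leaving out each library in turn gave 35 to 53 members called higher, 0 to 2 lower, and medians of 0.20 to 0.28. All genes called higher then numbered 4032 to 5015 and those called lower 4928 to 6967. A change of sign of a value called in neither fit was not counted as a reversal.

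Same-numbered libraries of the groups did not vary together (correlations of -0.21 to 0.16, with 1 of 5 matching its own number best), so the numbers were not taken as pairs. With the replicate number as a block, 42 members were called higher and 1 lower with a median of 0.23, and each of the 42 tested members named by rule stayed on its side of the threshold.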
